A study of Homo sapiens with 18 samples.

Results

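Libraries of the same cell line, 3 made as mRNA libraries and 3 as total RNA libraries, were compared to describe which RNA classes and genes each preparation captured. They are the empty vector libraries of the first and second experiments, chosen by their titles from the 18 libraries of the series. All 6 came from BE(2)-m17, a human neuroblastoma line, transfected with 2 transposon vectors, pSBbi-Hyg-APP (amyloid precursor protein) and an empty pSBbi-Pur (labelled Puro). Cells were plated at 14000000 per well and lysed on day 4 without a drug treatment named in the labels. The first experiment used a TruSeq RNA kit, and the second used a SMARTer stranded kit for low inputs of total RNA. The labels of the first experiment also name the SMARTer kit in their extraction text, and the assignment used here follows the kit field and the study's methods. Instrument and cultures changed together with the kit, so the kit, the instrument and the cultures cannot be told apart in any difference below. The study names cryopreserved cells and then newly transfected cells for its later experiments, and the labels do not say which the second experiment used, so that difference also goes with the kit. The comparison covers the empty vector line, and the same contrast in the ABCC1 line of the series is given at the end.

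An mRNA kit of this kind captures RNA by its poly(A) tail with oligo-dT beads. A total RNA kit copies RNA with random primers and removes ribosomal cDNA, so an RNA needs no tail to be copied. RNAs that end without a poly(A) tail include the transcripts of RNA polymerase III, the spliceosomal and nucleolar small RNAs and the mRNAs of the replication-dependent histones, which end in a stem-loop. Mitochondrial mRNAs carry short tails, and mitochondrial tRNAs and most intron sequence carry none.

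The counts of read pairs on Ensembl genes came to 43680059, 27331531 and 31545030 in the mRNA libraries and to 19340988, 27573604 and 20867270 in the total RNA libraries. A gene had at least 1 count in 26209 to 27823 IDs of an mRNA library and in 48080 to 49912 IDs of a total RNA library, of 57905 IDs. Replicate 2 of the total RNA libraries stood apart from the other two, with 2.93% of its counts on small noncoding RNAs and 10.2% on IDs without a type. Without it the means of these shares in the total RNA libraries were 4.38% and 13.9%. Shares are of the Ensembl counts of a library. Levels are given as CPM, which are counts scaled to a library size of 1000000 after TMM normalization in edgeR, and log2FC is the log2 ratio of total RNA over mRNA libraries from the same fit. A gene was called higher or lower where the adjusted p reached 0.001 and the log2FC lay at or beyond 1.5 in either direction.

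The share of protein-coding counts was lower in the total RNA libraries, and every other class with a type was higher. Protein-coding genes held 95.6, 95.3 and 95.4% in the mRNA libraries and 70.8, 76.7 and 71.9% in the total RNA libraries, a mean of 95.4% ± 0.125 against 73.1% ± 3.13 (SD, n = 3 each). Long noncoding RNAs held 1.14% ± 0.0130 against 5.24% ± 0.652 (SD, n = 3 each). In the total RNA libraries AL355075.4, RMRP and MALAT1 held 20.5, 13.3 and 11.3% of the long noncoding counts. RMRP and TERC have a long noncoding type and are also in the polymerase III list below. Pseudogenes held 0.339% ± 0.00132 against 1.36% ± 0.186 (SD, n = 3 each), and the mitochondrial genome held 2.32% ± 0.111 against 3.73% ± 0.450 (SD, n = 3 each). The small noncoding RNAs (snRNA, snoRNA, miRNA and other short classes) held 0.00436, 0.00489 and 0.00453% in the mRNA libraries and 4.44, 2.93 and 4.31% in the total RNA libraries, the largest relative difference of the typed classes at 848-fold. In each of these classes the 3 libraries of one preparation lay wholly apart from the 3 of the other. An exact two-sided permutation test of 3 against 3 libraries gave p = 0.1 for each class, which is the smallest value this design allows, and the Benjamini-Hochberg adjusted value was also 0.1.

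Ensembl IDs that carry no gene type in the annotation used for names held 0.780% ± 0.00118 against 12.6% ± 2.12 (SD, n = 3 each). Most of that difference lay in 2 loci of chromosome 14, which held 0.000238% ± 7.52e-05 against 9.73% ± 1.78 (SD, n = 3 each). The first, ENSG00000258486 at chr14:50053297-50053596, plus strand (GRCh37), held 1.22, 1.83 and 2.32 CPM in the mRNA libraries and 54496, 37762 and 61827 CPM in the total RNA libraries. The second, ENSG00000265150 at chr14:50329271-50329567, minus strand, held 0.676, 0.675 and 1.14 CPM in the mRNA libraries and 37470.2, 31472 and 43972 CPM in the total RNA libraries. Their annotation is not paired with a gene name in the files, and they are given by ID only. The 12 IDs of contig GL000220.1 held 0.0659% ± 0.00394 against 1.64% ± 0.299 (SD, n = 3 each).

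**Figure D1:**
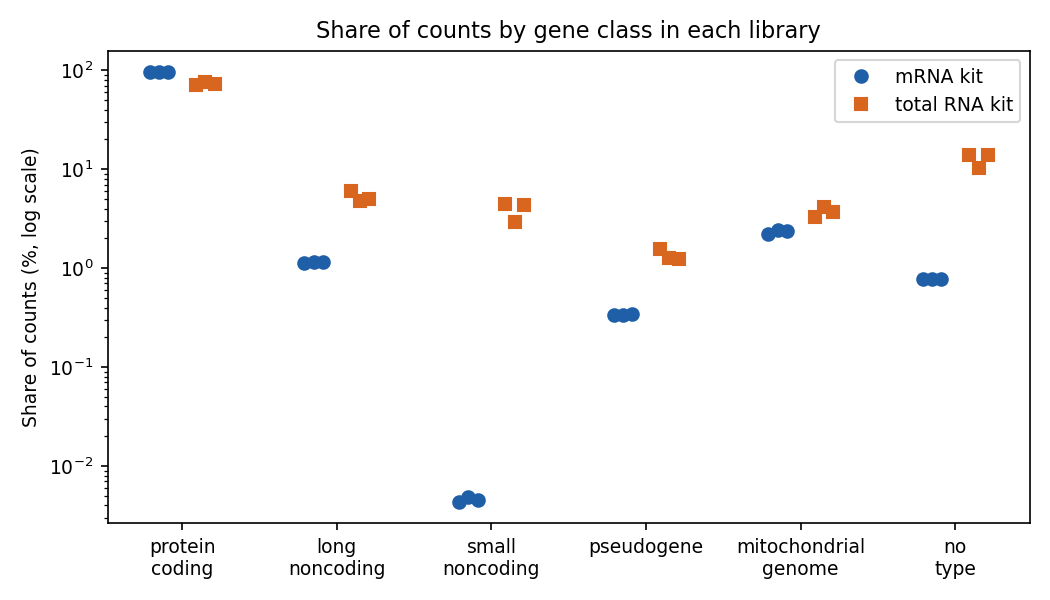
Share of the Ensembl counts of each library held by each gene class, in percent on a log axis, with 1 point per library, circles for the mRNA and squares for the total RNA libraries. The small noncoding points of the mRNA libraries lie between 0.00436 and 0.00489% and those of the total RNA libraries between 2.93 and 4.44%.

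Of 30007 genes tested, 15424 (51.4%) were called higher and 2033 (6.78%) lower in the total RNA libraries. The count lower was 866 with TMM from protein-coding genes, 1022 with library totals, 3237 without the filter on low counts and 526 with 10 counts in every library, where 2652 were higher. Much of the higher count lay near the level of reads on silent genes, which is described below. Among the 10167 genes with a mean of at least 10 CPM, 347 (3.41%) were called higher and 1890 (18.6%) lower. By class, 39 of 186 long noncoding genes above that level, 33 of 104 pseudogenes and 154 of 9648 protein-coding genes were higher, while 1844 protein-coding genes (19.1%) were lower. The mean was taken over both sets, and a gene that one set alone brings past it had to differ. That holds for 262 of the 347 higher genes, whose mean in the mRNA libraries was under 10 CPM (31 of the 39 long noncoding genes, 29 of the 33 pseudogenes, 88 of the 154 protein-coding genes and all 68 small noncoding ones), and for 202 of the 1890 lower genes the other way. Of the 9085 genes with a mean of at least 10 CPM in each set, 85 were higher and 1688 lower. The median log2FC of those 9648 protein-coding genes was -0.87. Each library pools the RNA of a culture, so fewer cells of a type and less RNA per cell cannot be told apart.

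Stable noncoding RNAs, most of them made by RNA polymerase III, were almost absent from the mRNA libraries. The list of 11 such RNAs, which also holds TERC, a product of RNA polymerase II, held 0.000503% ± 0.000104 against 2.87% ± 0.617 (SD, n = 3 each) of the counts. The 8 that were tested were all higher, against 51.4% of all genes tested, with a median log2FC of 12.34 (10.95 with genes at 0 in the mRNA libraries set to the bound of 3 counts). Of the list, 3 were above background (defined below) in the mRNA libraries. The other tested members passed the filter through the total RNA libraries alone, so their direction was fixed by it. VTRNA1-1, VTRNA1-2 and VTRNA2-1 were too low in both sets to be tested. A pair of these RNAs and a spliceosomal RNA are shown because the largest differences lie in RNAs of this kind. The sequences are GENCODE release 29 transcripts, written as DNA, with a final run of T or the Sm site (where Sm proteins bind) in capitals, and 7SK is given from position 212 to its end at 331.
7SK: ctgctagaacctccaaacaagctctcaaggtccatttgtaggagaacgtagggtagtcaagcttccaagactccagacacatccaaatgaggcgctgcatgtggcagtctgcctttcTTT
RNY1: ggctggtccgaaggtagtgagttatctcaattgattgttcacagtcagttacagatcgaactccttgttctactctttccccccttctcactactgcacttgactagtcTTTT
RNU4-2: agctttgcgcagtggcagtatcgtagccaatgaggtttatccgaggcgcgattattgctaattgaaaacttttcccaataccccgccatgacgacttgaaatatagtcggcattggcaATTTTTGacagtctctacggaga
A final TTT, which polymerase III leaves at termination, closed the annotated transcript of 7 of the 11 RNAs and of 796 of all 6099 small noncoding IDs (13.1%). The pattern ATTTNTG, searched on the transcript strand, was in 7 of the 19 snRNAs of the list and in 634 of the 6099 (10.4%).

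7SK, the RNA that holds the elongation factor P-TEFb inactive, lies at chr6:52860418-52860748, plus strand, and held 1.33, 1.91 and 1.80 CPM in the mRNA libraries and 19999, 13353 and 23122 CPM in the total RNA libraries. The 2 sets did not overlap (log2FC 13.47 ± 0.35 (SE), edgeR adjusted p = 3.31e-20). RMRP, the RNA of RNase MRP, held 2.29, 2.66 and 2.56 CPM in the mRNA libraries and 6439, 5354 and 7405 CPM in the total RNA libraries (log2FC 11.32 ± 0.28 (SE), edgeR adjusted p = 2.43e-20). TERC, the template of telomerase, held 0.156, 0.397 and 0.312 CPM in the mRNA libraries and 512, 354 and 605 CPM in the total RNA libraries (log2FC 10.79 ± 0.30 (SE), edgeR adjusted p = 5.54e-20). Its 3 mRNA values stayed under 1 CPM. RNY4, a Y RNA bound by the Ro protein, had 0, 0 and 0 counts in the mRNA libraries and 3788, 3214 and 3725 counts in the total RNA libraries, at least 1489-fold higher in the latter. RNY1 had 1, 0 and 0 counts in the mRNA libraries and 4631, 3635 and 4211 counts in the total RNA libraries, a pooled ratio of 15512 (95% exact interval 2784 to 612761, counting error only). BCYRN1 and VTRNA1-3, a neuronal RNA and a vault RNA, had log2FC 6.02 ± 0.21 (SE) and 11.10 ± 0.32 (SE). BCYRN1 was the smallest of the 8 differences, but its row in the files covers 13458 bp as 1 exon, far longer than the neuronal RNA, so its counts need not come from that RNA.

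The spliceosomal RNAs, which recognise splice sites and form the catalytic core, followed, in a list that also holds the U7 RNA (RNU7-1), which is not spliceosomal. All 18 tested of 19 were higher (median log2FC 9.19, bounded 8.23), against 51.4% of all genes tested, and RNU7-1 was at 0 in all 6 libraries. None of the 19 was above background in the mRNA libraries and 10 of the 18 were at 0 there, so they passed the filter through the total RNA libraries and their direction was fixed by it. RNU4-2 at chr12:120729566-120729706, minus strand, had 0, 0 and 0 counts in the mRNA libraries and 8933, 7338 and 8442 counts in the total RNA libraries, at least 3432-fold higher. RNU5A-1 had 0, 0 and 0 counts in the mRNA libraries and 4123, 4134 and 4255 counts in the total RNA libraries, at least 1722-fold higher. For the RNU1 and RNU6 copies, pairs that matched several near-identical copies were not counted, so their levels are uncertain. RNU1-1 held 0.0260, 0 and 0 CPM in the mRNA libraries and 133, 53.9 and 93.3 CPM in the total RNA libraries.

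Small nucleolar and Cajal body RNAs, which guide the modification of ribosomal and spliceosomal RNA, were the largest list. Of 495 IDs, 330 had no count in any mRNA library, and 120 of these had none in any total RNA library either. Among the 187 that were tested, 186 were higher and none lower, against 51.4% and 6.78% of all genes tested, with a median log2FC of 7.80 (6.15 bounded). The RNAs that passed the filter did so largely through the total RNA libraries, so this count had to lean that way. SNORA73B held 0.156, 0.0397 and 0.208 CPM in the mRNA libraries and 2279, 1475 and 2495 CPM in the total RNA libraries (log2FC 13.81 ± 0.36 (SE), edgeR adjusted p = 2.79e-20). SNORD3A, the U3 RNA of rRNA processing, held 0, 0 and 0.0346 CPM in the mRNA libraries and 822, 513 and 862 CPM in the total RNA libraries, a pooled ratio of 65339.9 (95% exact interval 11727 to 2580840, counting error only). SNORD17, SNORD15B and SCARNA10 had log2FC 10.73 ± 0.30 (SE), 12.64 ± 0.36 (SE) and 11.60 ± 0.30 (SE). Above the background of the total RNA libraries, defined below, lay 67 of 195 box H/ACA IDs (34.4%), 96 of 280 box C/D IDs (34.3%) and 19 of 20 Cajal body RNAs.

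Levels were carried by a few RNAs. Over the 3 total RNA libraries, 7SK held 92.6% of the misc_RNA counts, SNORA73B held 29.8% of the snoRNA counts and RNU4-2 held 25.9% of the snRNA counts. MIR3648-2 held 80.1% of the counts on miRNA IDs. Mature miRNAs are shorter than the fragments these kits sequence, and counts on miRNA IDs are not read here as mature miRNAs. RNA5S9 held 96.2% of the counts on 28 rRNA IDs, which had 39902 counts in the total RNA libraries and 0 in the mRNA libraries. By length, IDs of 200 bp and over held 68.4% of the small noncoding counts and those under 80 bp held 2.12%. Without 7SK these shares were 33.3% and 4.46%.

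**Figure D2:**
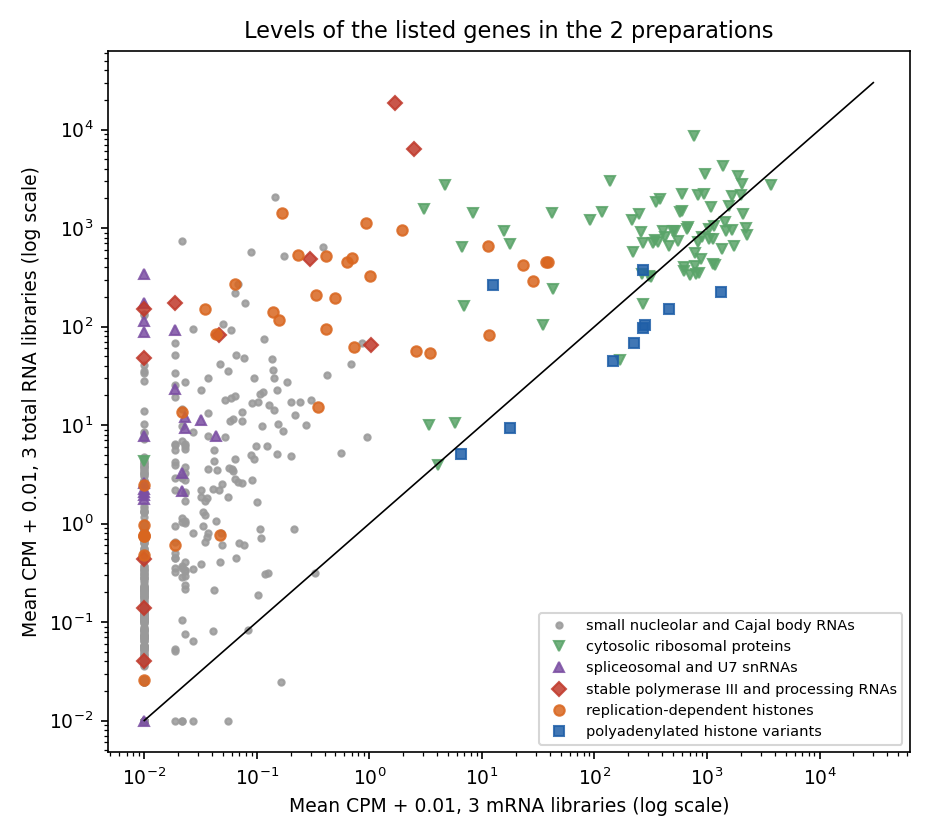
Mean CPM of the 3 mRNA libraries (x axis) against mean CPM of the 3 total RNA libraries (y axis), each plus 0.01 on a log scale, with 1 point per listed gene and a line of equal level. Every tested snRNA, replication-dependent histone and member of the polymerase III list (which holds TERC) lies above the line, and of the histone variants H3-3A (12.4 against 264 CPM) and H2AZ1 (272 against 375 CPM) do.

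Replication-dependent histones, which package new DNA in S phase, were low as a group in the mRNA libraries, where the 36 genes had a median of 0.330 CPM against 129 CPM in the total RNA libraries. All 33 tested of 36 were called higher, against 51.4% of all genes tested, with a median log2FC of 8.34 (7.83 bounded) and a range of 2.86 to 13.15. Above background in the mRNA libraries lay 16 of the 36, and the others that were tested passed the filter largely through the total RNA libraries. Together they held 0.0150% ± 0.000504 against 1.05% ± 0.157 (SD, n = 3 each) of the counts. The stem-loop that closes these mRNAs, and the AATAAA signal that directs polyadenylation, are shown for a few members below, with the 16 bases of the stem-loop or the 6 bases of the signal in capitals.
H2AC13 stem-loop: accaaaGGCTCTTTTCAGAGCCacctac
H2BC13 stem-loop: cccaaaGGCTCTTTTCAGAGCCactcac
H4C11 stem-loop: ataaaaGGCCCTTTTCAGGGCCacccta
H2BC5 stem-loop: cccaaaGGCTCTTTTAAGAGCCacgcat
H2BC5 poly(A) signal: ttataattAATAAAatctgcggagaatt
H2AC6 poly(A) signal: catgaggtAATAAAaggtaatgc
H2BC21 poly(A) signal: ttgttattAATAAAgttaccaattaatt
H3-3B poly(A) signal: gagactaaAATAAAatttttgaagttaa
A stem-loop pattern of 16 bases (GG, 3 of any base, TT, any base, T, any base, A, 3 of any base, CC), searched on the transcript strand over whole annotated transcripts, was in 18 of the 36 histone genes (50%) and in 1222 of 19069 protein-coding genes (6.41%). Searched in the last 100 bases only, it was in 8 of 36 (22.2%) and 77 of 19069 (0.404%). The window was widened after the first result, because many histone models end at the coding sequence or run far past the stem-loop. AATAAA in the last 50 bases was in 11 of 36 histone genes (30.6%), in 7 of 11 histone variant genes with H2AX (63.6%) and in 70.7% of all.

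H1-5, a linker histone at chr6:27834570-27835359, minus strand, held 0.130, 0.199 and 0.139 CPM in the mRNA libraries and 1315, 1127 and 1809 CPM in the total RNA libraries (log2FC 13.15 ± 0.32 (SE), edgeR adjusted p = 2.25e-20). H4C3 held 0.182, 0.318 and 0.173 CPM in the mRNA libraries and 472, 411 and 707 CPM in the total RNA libraries (log2FC 11.22 ± 0.30 (SE), edgeR adjusted p = 4.75e-20). H2AC21 held 0.0520, 0.0397 and 0.0693 CPM in the mRNA libraries and 224, 251 and 342 CPM in the total RNA libraries (log2FC 12.18 ± 0.30 (SE), edgeR adjusted p = 2.43e-20). H4C11 and H3C13, an H4 and an H3 gene, had log2FC 11.16 ± 0.35 (SE) and 12.49 ± 0.36 (SE). No library of one set reached a library of the other for any of these genes. Of the 36, 19 had a mean above 100 CPM in the total RNA libraries, and 6 had a mean above 10 CPM in the mRNA libraries. These 6 were H1-2, H2AC6, H2AC25, H2BC5, H2BC12 and H2BC21, named here after their values were seen, and 3 of them (H2AC6, H2BC5 and H2BC21) hold AATAAA in their last 50 bases, as do 8 of the other 30. H2AC25, the highest of the 36 in the mRNA libraries at 39.0 CPM, lacks it, and H4C11, which holds it, had a mean of 0.0335 CPM there. H2AC6 held 37.9, 37.3 and 36.99 CPM in the mRNA libraries and 374, 372 and 615 CPM in the total RNA libraries (log2FC 3.60 ± 0.19 (SE), edgeR adjusted p = 2.71e-14). H2BC21 held 12.2, 10.5 and 11.6 CPM in the mRNA libraries and 67.6, 95.1 and 86.2 CPM in the total RNA libraries (log2FC 2.86 ± 0.15 (SE), edgeR adjusted p = 1.50e-14), the smallest difference of the list.

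Histone variants are made outside S phase as well, from polyadenylated mRNAs. Of 10, 4 were lower, 1 was higher and 5 had no call, against 18.6% lower and 3.41% higher of all genes of at least 10 CPM, with a median log2FC of -1.47. H3-3B held 466, 456 and 462 CPM in the mRNA libraries and 127, 169 and 158 CPM in the total RNA libraries. H3-3B, MACROH2A2 and H2AZ2 had log2FC -1.61 ± 0.15 (SE), -1.72 ± 0.16 (SE) and -1.69 ± 0.14 (SE). These 3 lost their call when the scaling was taken from protein-coding genes or library totals and with 10 counts in every library (log2FC -1.12 to -1.44). H3-3A was the exception at 12.5, 11.5 and 13.2 CPM in the mRNA libraries and 228, 261 and 301 CPM in the total RNA libraries (log2FC 4.41 ± 0.16 (SE), edgeR adjusted p = 2.08e-17). Histone H3.3 has pseudogene copies such as H3P6 (log2FC 1.89 ± 0.15 (SE)), and pairs matching several places were not counted. H2AX, which is made with and without a tail, held 164, 128 and 123 CPM in the mRNA libraries and 198, 213 and 306 CPM in the total RNA libraries and had no call (log2FC 0.79 ± 0.17 (SE)).

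The mitochondrial genome is copied as long transcripts of both strands, from which tRNAs are cut out and the mRNAs and rRNAs released. Of its 37 genes, 20 (54.1%) were higher and 2 lower, against 51.4% higher of all genes tested. Of the 24 with a mean of at least 10 CPM, 9 (37.5%) were higher, against 3.41% of all genes at that level. Of these 9, 5 had a mean under 10 CPM in the mRNA libraries and so reached that level through the total RNA libraries, which fixed their direction. Among the 22 tRNAs, 18 were higher, 2 were lower and 2 had no call, with a median log2FC of 5.88 (5.12 bounded). Of the 22, 9 were above background in the mRNA libraries and 5 were at 0 in all 3 of them. MT-TN at chrMT:5657-5729, minus strand, had 0, 0 and 0 counts in the mRNA libraries and 1755, 2773 and 2680 counts in the total RNA libraries, at least 981-fold higher. MT-TV had log2FC 4.91 ± 0.18 (SE), and the 2 that were lower were MT-TM (-2.04 ± 0.20 (SE)) and MT-TY (-2.91 ± 0.22 (SE)). MT-TH, MT-TV, MT-TN, MT-TM and MT-TY, like the other mitochondrial genes named beyond the 5 most abundant, were singled out after their values were seen.

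None of the 12 mRNAs of the plus strand was called, and the 1 mRNA of the minus strand was. Of the 13 mRNAs, 2 were lower without the filter on low counts and without mRNA replicate 3, and 1 was with DESeq2, with RLE, without mRNA replicate 2, without total RNA replicate 3 and with a shared spread. MT-ND6 held 147, 160.0 and 155 CPM in the mRNA libraries and 579.7, 789 and 668 CPM in the total RNA libraries (log2FC 2.14 ± 0.16 (SE), edgeR adjusted p = 1.47e-11). For the plus strand the log2FC ran from -1.47 (MT-ND3) to 0.998 (MT-CYB). MT-ND4 and MT-CO1, subunits of complex I and of cytochrome oxidase, held 3762, 4109.9 and 3882 CPM in the mRNA libraries and 2492, 4030.2 and 3122 CPM in the total RNA libraries and, for MT-CO1, 2521, 2843 and 2702 CPM in the mRNA libraries and 2579, 4244 and 3393 CPM in the total RNA libraries. The 2 sets of libraries overlapped for each of them, and the median of the 13 mRNAs, -0.29, turned to 0.07 with a scaling from protein-coding genes. MT-RNR2, the large ribosomal RNA, was higher (log2FC 1.58 ± 0.20 (SE), edgeR adjusted p = 7.07e-08) and MT-RNR1, the small one, fell short of the fold set (log2FC 1.42 ± 0.16 (SE), edgeR adjusted p = 2.26e-08). The MT-RNR2 call was lost at log2FC 1.33 to 1.47 in 6 of the alternatives, among them the fits without each mRNA replicate and without total RNA replicate 3. Strand was not used in the counting, so a count on a gene can come from either strand.

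**Figure D3:**
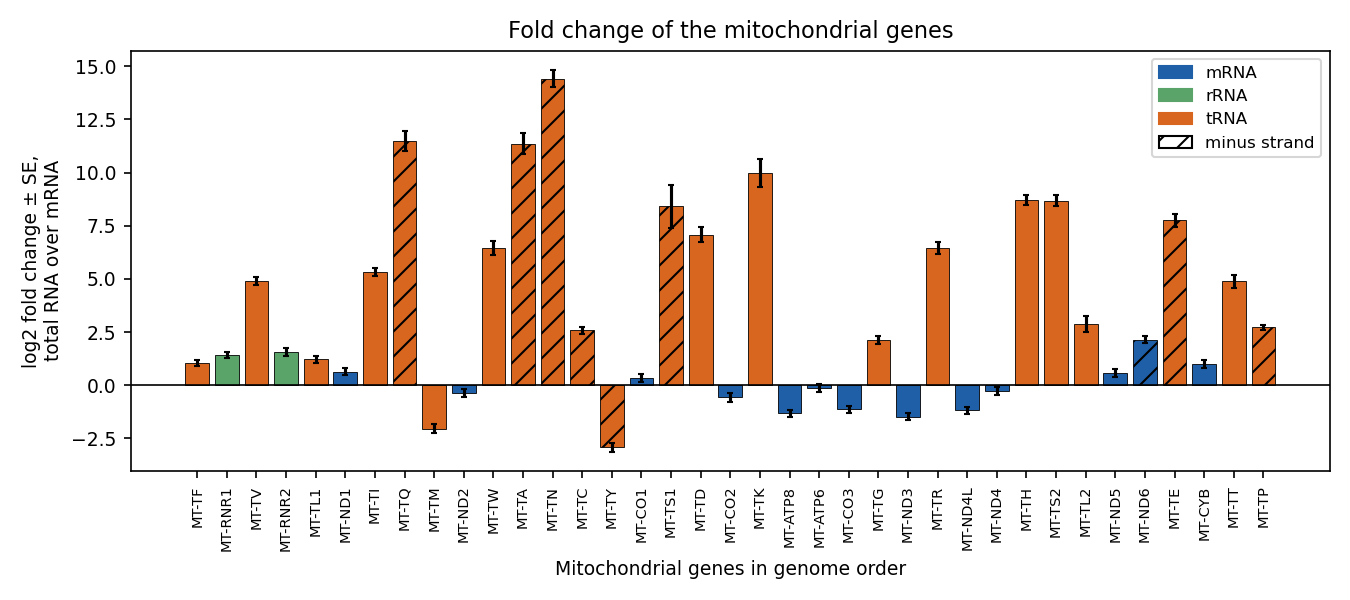
Log2FC of total RNA over mRNA libraries for the 37 mitochondrial genes in genome order, as bars with their SE, colored by kind (mRNA, rRNA or tRNA) and hatched for the minus strand. The 12 plus-strand mRNAs lie between -1.47 and 0.998. Genes with no count in any mRNA library have a fitted value that depends on the prior count.

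Of the nuclear and abundant lncRNAs, 2 of 8 were higher and 2 lower, against 39 and 16 of 186 long noncoding genes of at least 10 CPM. MALAT1, which sits in nuclear speckles and ends in a triple helix, held 237, 222 and 229 CPM in the mRNA libraries and 5614, 6133 and 4353 CPM in the total RNA libraries (log2FC 4.55 ± 0.20 (SE), edgeR adjusted p = 1.12e-15). KCNQ1OT1, which is transcribed across an imprinted locus, held 9.64, 13.9 and 12.1 CPM in the mRNA libraries and 186, 158 and 124 CPM in the total RNA libraries (log2FC 3.72 ± 0.17 (SE), edgeR adjusted p = 2.24e-15). Its row covers 91667 bp, so that its total RNA level came to 1.70 CPM per kb, which was not above background. H19, an imprinted RNA, held 20.02, 19.8 and 19.6 CPM in the mRNA libraries and 2.36, 2.35 and 1.81 CPM in the total RNA libraries (log2FC -3.17 ± 0.16 (SE), edgeR adjusted p = 2.05e-14). TUG1 had log2FC -2.09 ± 0.14 (SE), while NEAT1, MEG3, MIAT and NORAD had no call, at 0.92, 0.18, 1.22 and -1.06. The sets of MEG3 overlapped.

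Host genes of snoRNAs, whose introns carry the snoRNAs, gave 3 higher (25%) and 0 lower of 12, against 3.41% higher of all genes and 39 of 186 long noncoding genes of at least 10 CPM. SNHG3 held 31.4, 30.99 and 29.6 CPM in the mRNA libraries and 1070.0, 669 and 1199 CPM in the total RNA libraries (log2FC 4.996 ± 0.21 (SE), edgeR adjusted p = 2.98e-16). SNORA73B lies between its exons in the files' annotation. SNHG12 and SNHG6 had log2FC 2.91 ± 0.16 (SE) and 1.74 ± 0.15 (SE), and the SNHG6 call was lost without the filter on low counts (1.49). GAS5, SNHG1 and ZFAS1 had no call, at 0.36, 0.33 and 0.09. Among the lncRNAs with the largest differences, AL355075.4, which is annotated antisense and overlaps the PARP2 span (strand was not counted), held 0.962, 1.27 and 1.49 CPM in the mRNA libraries and 10063, 7315 and 12213 CPM in the total RNA libraries (log2FC 12.97 ± 0.34 (SE), edgeR adjusted p = 2.79e-20). AC007179.2, AC007952.4, AL356488.2 and AC051619.7 had log2FC 14.45 ± 0.40 (SE), 12.67 ± 0.35 (SE), 12.21 ± 0.31 (SE) and 12.28 ± 1.11 (SE), the last losing its call without each mRNA replicate, without total RNA replicate 3 and without the filter on low counts (log2FC 11.71 to 14.68). AC005288.1, AL031985.3 and BOLA3-DT were lower, with log2FC -2.61 ± 0.15 (SE), -2.08 ± 0.13 (SE) and -2.03 ± 0.13 (SE). SNHG29, the most abundant lncRNA of the mRNA libraries, fell by 1.57 on the log2 scale, a call lost with 2 other scalings and with 10 counts in every library (log2FC -1.07 to -1.28) and without total RNA replicate 2 (-1.49).

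Cytosolic ribosomal protein genes held 5.28% ± 0.0401 against 10.3% ± 0.736 (SD, n = 3 each) of the counts. Of 79, 24 were higher, 1 lower and 54 not called (median log2FC 0.60, and 0.36 to 1.08 under the alternatives), against 3.41% higher of all genes of at least 10 CPM, a level most of them pass, and 51.4% of all genes tested. The median of all protein-coding genes was -0.08. It turned to 0.28 with TMM from protein-coding genes and 0.21 with library totals, where the ribosomal protein median was 0.96 and 0.89. RPL13A held 800.1, 776 and 733 CPM in the mRNA libraries and 8051, 7656 and 10087 CPM in the total RNA libraries (log2FC 3.48 ± 0.20 (SE), edgeR adjusted p = 1.35e-13). RPL5, RPLP0, RPL4 and RPS6 had log2FC 1.63 ± 0.18 (SE), 0.85 ± 0.17 (SE), 0.47 ± 0.17 (SE) and -0.42 ± 0.17 (SE), of which only RPL5 was called. The RPL5 call was lost without mRNA replicate 2 or 3 (log2FC 1.47 each), without the filter (1.39) and with a shared spread (1.498).

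Ribosomal protein genes have many processed pseudogenes, which are copies of a spliced mRNA. Those named after a parent by symbol were counted. The 43 genes with 10 or more such copies gave 20 higher and 1 lower with a median log2FC of 1.34, against 4 higher and 0 lower of 36 and -0.11 for those with fewer. This split at 10, and the genes that follow, were chosen after their values were seen. RPS3A, with 53 named copies, held 4.99, 4.53 and 4.57 CPM in the mRNA libraries and 2742, 2177 and 3209 CPM in the total RNA libraries (log2FC 9.17 ± 0.25 (SE), edgeR adjusted p = 4.59e-20). RPL7 had log2FC 9.0 ± 0.24 (SE), and RPL26 was the one lower member (-1.89 ± 0.15 (SE)). The number lower was 3, 5 and 5 without mRNA replicates 1, 2 and 3, 2 without total RNA replicate 1 or 3 and with DESeq2 or RLE, 4 with a shared spread, 6 without the filter on low counts and 0 with 10 counts in every library. EEF1A1, the elongation factor, with 44 copies, held 907, 891 and 941 CPM in the mRNA libraries and 6116, 7621 and 8769 CPM in the total RNA libraries (log2FC 3.04 ± 0.20 (SE), edgeR adjusted p = 1.21e-12). Among protein-coding genes of at least 10 CPM, 14.7% of the 238 with 5 or more copies were higher, and 7.69% of the 182 left without the ribosomal protein genes, against 1.21% of the 8161 without a named copy. The counting left out pairs that matched several places, and its part in these differences was not tested.

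**Figure D4:**
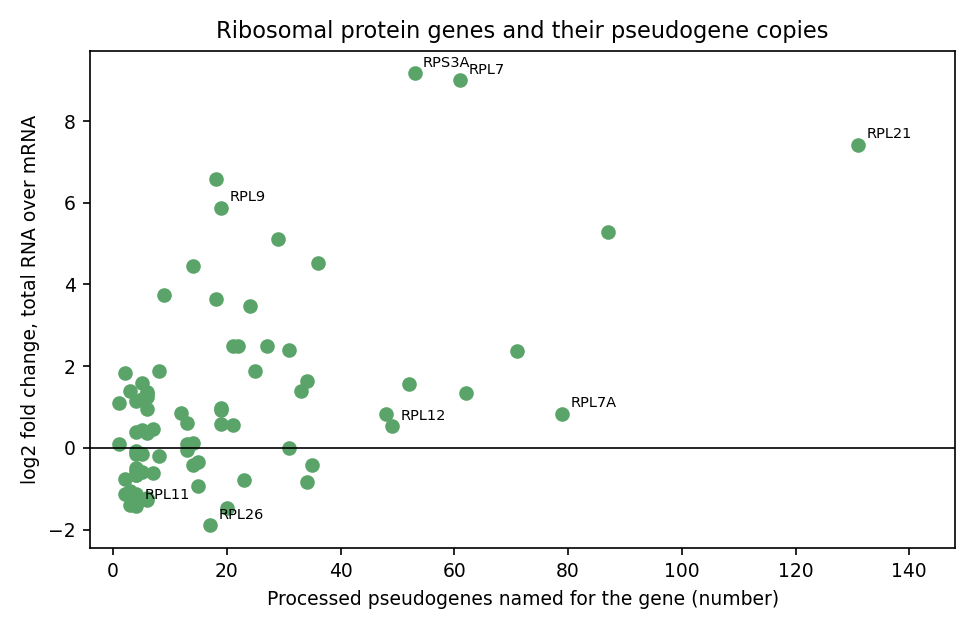
Log2FC of 78 of the 79 ribosomal protein genes (y axis) against the number of processed pseudogenes named after each (x axis), 1 point per gene. The genes with 10 or more copies shown reach a log2FC of 9.17, and the genes with fewer reach 3.75.

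Among pseudogenes, EEF1A1P5 held 3.09, 2.94 and 3.50 CPM in the mRNA libraries and 580.1, 660.0 and 754 CPM in the total RNA libraries (log2FC 7.71 ± 0.21 (SE), edgeR adjusted p = 4.25e-20). HMGB1P5, HMGB1P6, RPL7P9 and RPS3AP6 had log2FC 9.81, 8.26, 8.18 and 7.63. RPL10P3 was the largest difference the other way, at 58.2, 63.4 and 60.5 CPM in the mRNA libraries and 1.09, 0.818 and 0.0477 CPM in the total RNA libraries (log2FC -6.47 ± 0.27 (SE), edgeR adjusted p = 1.97e-16). MTND2P28 and MTND4P12, nuclear copies of mitochondrial genes, had log2FC -4.09 ± 0.16 (SE) and -3.86 ± 0.16 (SE). RPS28P7 and HLA-H were lower (-2.73 and -2.45), and the abundant MTATP6P1, RPL13P12 and RPS2P46 had no call (-0.55, -0.13 and 0.94). RPL10P3, EEF1A1P5 and their parents share sequence, and their levels are uncertain.

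Outside these groups, the 5 largest lower calls among protein-coding genes of at least 10 CPM were MEGF10, SCGN, S100A11, TMEM50A and HNRNPUL2, with log2FC -4.13 ± 0.15 (SE), -3.64 ± 0.17 (SE), -3.36 ± 0.18 (SE), -3.17 ± 0.13 (SE) and -3.08 ± 0.14 (SE). MEGF10, an engulfment receptor, held 113, 115 and 109 CPM in the mRNA libraries and 7.22, 5.20 and 7.01 CPM in the total RNA libraries. In the ABCC1 line the log2FC of the same contrast was 6.22 for MEGF10 and -0.47 for SCGN. S100A11, a calcium-binding protein, held 222, 204 and 209 CPM in the mRNA libraries and 13.9, 26.2 and 21.4 CPM in the total RNA libraries. EEF2, the most abundant protein-coding gene of the mRNA libraries, had no call (log2FC -0.87 ± 0.18 (SE)).

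Protein-coding genes were then ordered by exon length. The median log2FC of protein-coding genes was 2.52 at 200 to 300 bp of summed exon (4 genes), 6.82 at 300 to 500 bp (36), 6.33 at 500 to 1000 bp (401), 2.22 at 1000 to 2000 bp (1858), 0.24 at 2000 to 4000 bp, -0.38 at 4000 to 8000 bp and -0.49 at 8000 bp and over. With genes at 0 in the mRNA libraries set to the bound of 3 counts, the medians of the first 4 bins were 0.27, 3.84, 3.21 and 2.20. Not above background in the total RNA libraries were 75%, 38.9%, 70.3% and 59.9% of the genes of these bins. Across these 17523 genes, which are not independent replicates, Spearman's rho of exon length and log2FC was -0.26. Among genes of at least 10 CPM the fall with length lay in the shortest bins, which hold most of the histones. There the medians were 9.53 at 300 to 500 bp (9 genes, 8 of them histones), 0.13 at 500 to 1000 bp (55 genes, 10 of them histones) and -0.63, -0.92, -0.91 and -0.80 in the longer bins, with a rho of 0.03. Of the 8 genes called higher in the first of these bins 7, and of the 13 in the next 9, had a mean under 10 CPM in the mRNA libraries, so the level asked of them fixed their direction. By genomic span, the 16 such genes under 1000 bp, 13 of them histones, had a median of 9.48 (11 of the 13 higher ones lay under 10 CPM in the mRNA libraries), and the longer bins lay between -0.99 and -0.65.

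**Figure D5:**
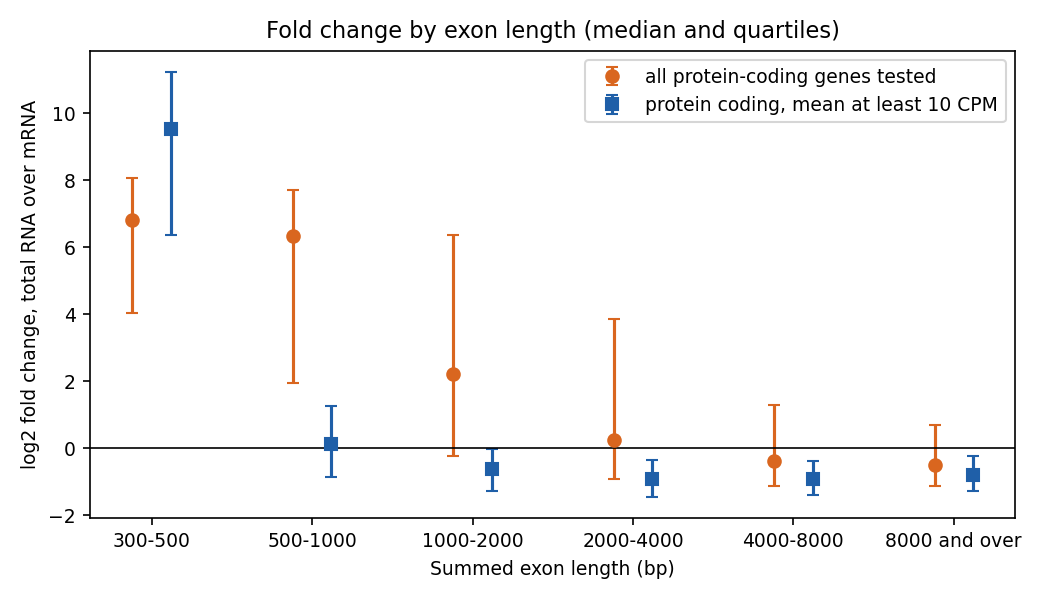
Median log2FC (points) with quartiles (bars) of protein-coding genes in bins of summed exon length, for all genes tested and for those with a mean of at least 10 CPM. Above 1000 bp the second set lies between -0.92 and -0.63 in every bin.

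Olfactory receptors, which serve smell in the nose, were assumed to be silent in this line, and their counts set the level of reads outside expressed genes. Of 350, between 20 and 24 had a count in an mRNA library and between 322 and 329 in a total RNA library. Of 119 that passed the filter, 118 were called higher, against 51.4% of all genes tested, having passed largely through the total RNA libraries. Their summed level was 0.00517 to 0.00604 CPM per kb of exon in the mRNA libraries and 0.477 to 0.657 in the total RNA libraries. A gene was taken as above background when its level per kb exceeded the 95th percentile of these genes in all 3 libraries of a set with at least 10 counts in each. By that measure 15796 genes were above background in the mRNA libraries and 12183 in the total RNA libraries, 10267 of them in both. Protein-coding genes numbered 13129 and 9477. The level to exceed was 0.0249 to 0.0316 CPM per kb in the mRNA libraries and 1.31 to 1.85 in the total RNA libraries. The 3820 protein-coding genes above it in the mRNA set alone had a median of 0.745 CPM per kb there, which would not pass in the total RNA libraries at an equal level, so these numbers do not show that one set lacked the genes. In the total RNA set alone were 168. For small noncoding RNAs the numbers turned, with 14 and 522. Of the 15424 genes called higher, 13060 (84.7%) were not above background in the total RNA libraries. For protein-coding genes that was 5094 of 5492 (92.8%), and for small noncoding genes 104 of 609 (17.1%).

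Genes wholly inside an intron of a protein-coding gene were set beside those that overlap no protein-coding gene, called outside. IDs in introns of noncoding host genes can fall in the outside set. Of 357 snoRNA and scaRNA IDs inside an intron, 31.7% were above background in the total RNA libraries with a median of 1.86 CPM per kb, against 17.3% and 0.976 of 440 outside. Processed pseudogenes inside introns (2884) had a median of 0.737 CPM per kb and those outside (6637) 0.496, with 6.66% and 3.13% above background. For snRNA IDs the medians were 0.949 inside and 0.713 outside, while the share above background was 5.56% inside and 6.86% outside. For misc_RNA IDs the medians were 1.11 and 0.808 with 6.93% and 5.38% above background, and for miRNA IDs 1.18 and 0.869 with 3.61% and 4.17%. Reads of an unspliced host can fall on an intronic gene, and their part was not tested.

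The cell type was checked against its markers. Of 13 adrenergic neuroblastoma markers, all 13 were above background in the mRNA libraries and 12 in the total RNA libraries, and 5 were lower (against 18.6% of all genes of at least 10 CPM) and none higher. MYCN, which drives many of these tumours, held 3357, 3215 and 2975 CPM in the mRNA libraries and 3433, 3897 and 3605 CPM in the total RNA libraries and had no call (log2FC 0.20 ± 0.17 (SE)). DBH and TH, enzymes of catecholamine synthesis, had log2FC -2.16 ± 0.15 (SE) and -1.89 ± 0.13 (SE), and ISL1, GATA3 and CHGB had -1.96 ± 0.16 (SE), -1.72 ± 0.17 (SE) and -1.63 ± 0.18 (SE). The calls of GATA3 and CHGB were lost with a scaling from protein-coding genes or library totals and with 10 counts in every library (log2FC -1.14 to -1.43), and those of ISL1 and TH with 10 counts in every library (-1.48 and -1.40). The 5 mesenchymal markers were all above background in the mRNA libraries and none was in the total RNA libraries, while their summed share of the counts was 0.00978% ± 7.37e-05 against 0.00852% ± 0.000175 (SD, n = 3 each). Among them, PRRX1 was lower, at 69.1, 65.2 and 66.1 CPM in the mRNA libraries and 15.1, 21.9 and 25.3 CPM in the total RNA libraries (log2FC -1.69 ± 0.15 (SE), a call lost at -1.20 to -1.41 with library totals, with TMM from protein-coding genes and with 10 counts in every library), and COL1A1 and COL3A1 were higher (4.11 ± 0.22 (SE) and 2.53 ± 0.26 (SE)). The leukocyte, epithelial and endothelial markers PTPRC, CD3E, EPCAM, KRT5 and CDH5 were called higher, from means of 0 to 0.673 CPM in the mRNA libraries to 1.95 to 6.18 CPM in the total RNA libraries, where none of them was above background. In the mRNA libraries 1 of the 2 epithelial markers was.

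The same contrast was made in the ABCC1 line, in 6 libraries that the comparison above did not use. Of 24375 genes tested there, 8925 (36.6%) were higher and 1163 (4.77%) lower. Of the genes called higher in the empty vector cells, 7795 (50.5% of those and 87.3% of the calls in the ABCC1 line) were called the same way, and 0 the opposite. Of those called lower, 1055 (51.9% and 90.7%) were, and 6 went the opposite way. Genes called in the empty vector cells but not tested in the ABCC1 line count here as not shared. Genes that passed the filters through the total RNA libraries alone could not be called the opposite way. Among genes of at least 10 CPM the higher calls shared 330 (95.1% and 87.3%) and the lower calls 984 (52.1% and 95.6%). The share of small noncoding counts in the ABCC1 line was 0.00408 to 0.00466% in mRNA and 3.14 to 3.71% in total RNA libraries. For the histones the median log2FC there was 7.82, with 33 of 33 tested higher. In a fit of all 12 libraries, 378 of 36290 genes (1.04%) differed between the lines in this contrast at an adjusted p of at most 0.05.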

How the data were processed

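Per the labels and the study's methods, the authors converted reads with bcl2fastq 2.18, aligned them with STAR 2.7.3a to GRCh37 (hs37d5) with the vector sequences, and counted read pairs on exons with featureCounts (Subread 2.0.0) and the Ensembl release 74 annotation. Strand was not used, and pairs matching several places or several genes were not counted. The deposited values are whole-number counts, not normalized, for 57905 Ensembl IDs, 92 spike-in controls and 6 vector sequences. Spike-in and vector rows were left out of library sizes and tests and made up 0.362 to 1.21% of the counts. Read lengths are not given in the sources used here.

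The 3 first-experiment and 3 second-experiment empty vector libraries were compared by edgeR 4.0.16 under R 4.3.3 (filterByExpr at a minimum count of 10, TMM, robust quasi-likelihood test, Benjamini-Hochberg adjustment over all genes tested, two-sided). Names and types came from GENCODE release 29 by Ensembl ID, which matched 52338 of 57905 IDs (90.4%). Coordinates are those of the files (GRCh37), and sequences are GENCODE transcripts of that release (GRCh38 annotation). Floors of 3 counts per library and intervals cover counting error only. Replicates are 3 cultures per experiment, plated in different weeks per the study's methods. Chi-square per degree of freedom was 2.11 to 4.27 between mRNA libraries and 12.8 to 22.4 between total RNA libraries, so none was a copy of another.

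The named genes were all members of lists of up to 20, the 5 most abundant of longer lists, and, among protein-coding, long noncoding and pseudogene rows of at least 10 CPM, the 5 largest called differences each way and the 3 most abundant per set. The members and lists were chosen with earlier results of these data known. The fit was tested on simulated data, with 100 genes changed by 2 and 100 by 3 on the log2 scale, as many up as down. It recovered 89% and 100% of them, with 0 false calls among 27961 genes. The changed genes were all well counted and the spread was fixed. The real contrast is mostly one-sided, with many genes near 0 in one set, so the simulation does not give its error rate. DESeq2 1.42.0, limma-voom (limma 3.58.1), RLE, TMM from protein-coding genes, library totals, no filter, 10 counts in every library, the replicate block, each library left out and a spread shared over 18 libraries were alternatives. The class without a type, the restriction to genes of at least 10 CPM by length, the splits by pseudogene copies, the search of histone transcript ends and the split of the mitochondrial list were added after seeing the data. Results for a few members of the lists are not reported here.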

Additional observations from a re-analysis of the deposited data

Results flagged for a closer look

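Of the genes named, 11 differed between the lines in this contrast, by the interaction of line and experiment in the fit of 12 libraries with edgeR (adjusted p at most 0.05). The difference, as the ABCC1 line minus the empty vector line in log2 units, was largest for MEGF10 at 10.29. Its log2FC was -4.13 in the empty vector cells and 6.22 in the ABCC1 line, opposite in sign. SCGN differed by 3.17, NEAT1 by 1.22, INSM1 by 1.13, ISL1 by 0.74 and BOLA3-DT by 0.73. COL1A1 differed by -1.74, MT-TV by -1.18, MT-TM by -1.11, H2AC6 by -1.02 and H2BC5 by -0.75.

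Rows outside the Ensembl genes also held counts. The sums below are raw counts, not scaled to library size. The mRNA libraries held 27331531 to 43680059 Ensembl counts and the total RNA libraries 19340988 to 27573604, so the sums are not compared as levels. Spike-in rows summed to 12 counts over the 3 mRNA libraries. ExogenousAPPid, the APP transgene, summed to 27205 counts in the mRNA libraries and 16813 in the total RNA libraries. HYGrID, the hygromycin resistance gene, summed to 106996 and 41003, and PURrID, the puromycin resistance gene, summed to 270021 and 662344. ExogenousABCC1id, which the empty vector cells should lack, had 31 and 13 counts, and ExogenousEGFPid had 86 in the total RNA libraries.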

How the results depend on the processing

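The count of genes called higher stayed within 1.5 times of 15424 in all alternatives but 10 counts in every library (2652, which drops genes absent from one set). The count called lower was 866 with TMM from protein-coding genes, 1022 with library totals, 3237 without the filter, 526 with 10 counts in every library and 8313 at an adjusted p of at most 0.05 with no minimum fold. TMM from protein-coding genes and library totals raised the median log2FC of all genes by 0.36 and 0.29. Without each replicate in turn, 15454 to 18069 genes were higher and 1964 to 2736 lower, and 15834 to 16289 genes lay above background in the mRNA and 12794 to 13722 in the total RNA libraries. Counted outside the mitochondrial genome, the shares in the mRNA libraries were 97.7% protein coding, 1.16% long noncoding, 0.347% pseudogene and 0.798% without a type. The same replicate numbers did not mark paired libraries, with correlations of same-numbered deviations from -0.061 to 0.021, and with the replicate block 15471 genes were higher and 2097 lower. Of 164 named genes in 2406 refits, 2271 kept their direction and side of the threshold, 59 gained a call, 40 lost one and 36 changed sign, all of the last with no call. With 10 counts in every library the log2FC turned to 0.12 for H2AJ, 0.39 for EPB41L4A-AS1, 0.20 for MT-ND4, 0.13 for MT-ND2, 0.071 for RPS6, 0.23 for INSM1, 0.36 for RPL13P12 and 0.45 for RPS10. With TMM from protein-coding genes it turned to 0.25 for EPB41L4A-AS1, 0.066 for MT-ND4, 0.10 for INSM1, 0.22 for RPL13P12 and 0.31 for RPS10, and with library totals to 0.18, 0.032 (INSM1), 0.15 (RPL13P12) and 0.24 (RPS10). Without the filter it was -0.067 for MEG3, -0.070 for SNHG5, -0.23 for SNHG15, -0.068 for SNHG14, -0.16 for ZFAS1 and -0.050 for MYCN. SNHG15 was -0.039 with DESeq2 and -0.038 with RLE, -0.12 with a shared spread and -0.15 to -0.038 across 5 fits without a replicate, ZFAS1 was -0.044 with a shared spread and -0.082 to -0.024 in 3 such fits, and RPS10 was 0.011 without total RNA replicate 2. The cause was not tested. At the depth of these libraries a count of 0 allows up to 0.0687 to 0.110 CPM of the Ensembl counts in an mRNA library and 0.109 to 0.155 in a total RNA library, for counting error only.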
